A study of Canis lupus familiaris with 4 samples.

Results

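The 10 immediate early genes FOS, FOSB, JUN, EGR1, EGR2, ATF3, DUSP1, NR4A1, ZFP36 and BTG2 were examined as a group in canine mammary ductal carcinoma. They were chosen by their symbols, and all 10 were found among the 11277 genes of the count tables and were tested. The study sequenced 4 RNA libraries, with T1 and T2 made from carcinoma and the controls C1 and C2 made from non-tumor mammary tissue next to it. Each library is a pool of 3 dogs, out of 6 intact female dogs of different breeds aged 5 to 14 years with early-stage disease, all operated on by radical mastectomy, and no other treatment is given in the sources used here. T1 and C1 (pool 1) came from one set of dogs and T2 and C2 (pool 2) from the other, so an n of 2 means 2 pools, and dogs cannot be seen one by one.

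Immediate early genes are transcribed within minutes of a stimulus, without new protein synthesis, when MAP kinase, calcium or cyclic AMP signals activate transcription factors already present in the cell. Growth factors, stress and injury induce them in most tissues, the mammary epithelium among them. Their products are transcription factors (FOS, FOSB, JUN and ATF3, which pair through leucine zippers, the zinc finger factors EGR1 and EGR2, and the nuclear receptor NR4A1) and brakes on the response (DUSP1, ZFP36 and BTG2).

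Levels are given as CPM, that is, counts scaled to a common library total with TMM, a factor that corrects for library composition. Totals were 35496260 counts in T1, 3236218 in T2, 32352002 in C1 and 4027367 in C2, so pool 1 was sequenced 11.0 times as deeply as pool 2 in carcinoma and 8.03 times in non-tumor tissue. The smallest count of any of the 10 genes was 13, for EGR2 in T2, and the next smallest was 26, for BTG2 in C2. Both lie above the 3 counts that a count of 0 allows. Markers of other cells also moved with tissue: 5 measured striated muscle genes summed to 21.5 and 27.1 CPM in carcinoma and to 1799 and 2936 CPM in non-tumor tissue (TNNT3 and MYLPF had a count of 0 in T2), while 5 luminal epithelial genes summed to 1612 and 1652 CPM in carcinoma and to 1362 and 1271 CPM in non-tumor tissue. Of these 5, PROM1 was called higher, ELF5 was called lower and 3 were not called, and without PROM1 the sum was 1042 and 1109 CPM in carcinoma and 1275 and 1186 CPM in non-tumor tissue. KRT8 and KRT18, defining luminal keratins, were not in the tables used here.

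Only EGR2 passed the test among the 10 genes, and it was lower in carcinoma. A gene was said to pass at an adjusted p under 0.05 (edgeR quasi-likelihood test, Benjamini-Hochberg over all genes) if its log2 fold change was also at least 1 in size. Thus 1 of 10 was lower and 0 were higher, where 5.23% of all genes were called lower and 4.61% higher (9.84% in either direction). The share of the group that passed was therefore near that of all genes. At an unadjusted p under 0.05, 1 of the 10 was higher and 2 were lower, against 28.5% of all genes in either direction, and DESeq2 likewise called 1 lower and 0 higher, where it called 5.61% of all genes lower and 5.08% higher. By sign, 5 genes had a positive and 5 a negative log2 fold change, but without C1, and likewise without T2, there were 2 positive and 8 negative. In those fits 1 tissue holds a single pool, so the difference between pools is mixed into the fold change. With all libraries the median log2 fold change of the 10 genes was −0.02, and that of all genes was 0.03. The main fit has no term for the pools, so differences between the sets of dogs widen its SE, intervals and p-values. For FOS the SE was 0.36 in it and 0.07 with the pools as a replicate block. Under that block EGR2 and BTG2 passed, in a fit with 1 residual degree of freedom.

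**Figure D1:**
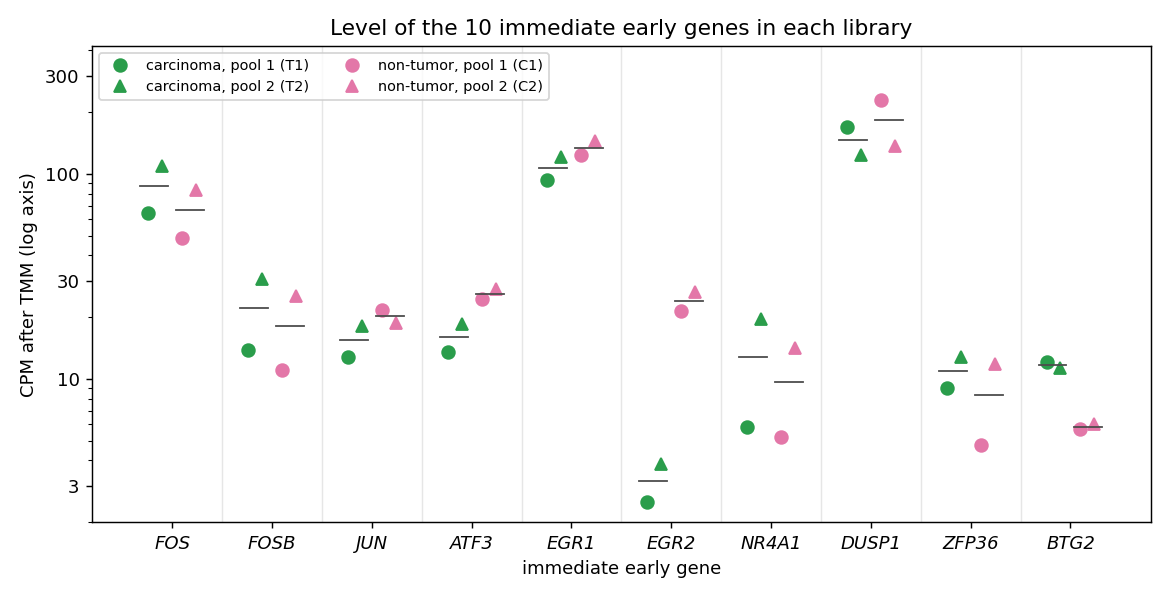
CPM (log axis) of the 10 immediate early genes in each library, carcinoma in green on the left and non-tumor in pink on the right, circles for pool 1, triangles for pool 2, and a line at the mean of each tissue. EGR2 lies at 2.52 and 3.87 CPM in carcinoma, below its 21.5 and 26.4 CPM in non-tumor tissue, and in FOS, FOSB, NR4A1 and ZFP36 both triangles lie above both circles.

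EGR2 encodes a zinc finger transcription factor that is known for its part in myelination by Schwann cells and in the restraint of T cell activation. It had 2.52 CPM in T1 and 3.87 CPM in T2, against 21.5 CPM in C1 and 26.4 CPM in C2. The tissues did not overlap, and the lower non-tumor library stood well above the higher carcinoma library. The mean was 3.19 ± 0.953 CPM in carcinoma and 24.0 ± 3.48 CPM in non-tumor tissue (SD, n = 2 each), a log2 fold change of −2.96 (SE, standard error, 0.32, 95% interval −3.79 to −2.13, adjusted p = 0.00645). This corresponds to a level 7.79-fold lower in carcinoma, and 209th of the 11277 genes by the size of its fold change. The raw counts were 88 in T1 and 13 in T2, against 635 in C1 and 114 in C2.

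The fall of EGR2 was seen within each set of dogs. The ratio of carcinoma to non-tumor CPM was 0.117 in pool 1 (95% interval 0.0926 to 0.147) and 0.146 in pool 2 (95% interval 0.0756 to 0.260). These are exact Clopper-Pearson intervals, which cover counting error only. With any one library left out the adjusted p-values of EGR2 ran from 0.000683 to 0.0183, in fits where 1 tissue holds a single library that is assumed to vary like those of the other.

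Markers of cell types that can express EGR2 were set beside it. Of 9 T and NK cell markers 6 were measured, with 2 called lower and all 6 lower at an unadjusted p under 0.05. They summed to 19.1 and 17.5 CPM in carcinoma and to 48.3 and 42.4 CPM in non-tumor tissue. Of 7 macrophage markers 5 were measured, with 1 called lower and 2 lower at an unadjusted p under 0.05. Their sums were 256 and 262 CPM in carcinoma and 433 and 399 CPM in non-tumor tissue. Of 7 Schwann cell markers 3 were measured (SOX10, MBP and PMP22) and none was called by edgeR or by DESeq2 or had an unadjusted p under 0.05, with sums of 106 and 165 CPM in carcinoma and 109 and 123 CPM in non-tumor tissue. S100B and CDH19 were not in the tables used here. No measured marker of these 3 lists was at 0 in any library. Of 7 fibroblast markers 6 were measured, with 3 called lower and all 6 lower at an unadjusted p under 0.05. Their sums were 1741 and 2197 CPM in carcinoma and 5485 and 5907 CPM in non-tumor tissue. Other marker lists moved with tissue as well. Of 5 mast cell markers 4 were measured and 3 called lower (CPA3, FCER1A and MS4A2), with sums of 134 and 136 CPM in carcinoma and 165 and 145 CPM in non-tumor tissue, most of it from KIT, which was not called. Of 8 blood endothelial markers 6 were measured and 3 called lower, with sums of 367 and 355 CPM in carcinoma and 665 and 685 CPM in non-tumor tissue. Of 5 neutrophil markers 2 were measured, S100A8 and S100A9, and both were called higher, with sums of 96.6 and 94.9 CPM in carcinoma and 8.57 and 9.04 CPM in non-tumor tissue. CSF3R, CXCR2 and MPO were not in the tables used here, so the 2 genes alone do not show a change in neutrophils. The part of these cell types in the level of EGR2 was not tested, and in bulk tissue fewer cells of a type and less RNA per cell cannot be told apart.

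EGR1, the zinc finger factor most often used as a readout of growth factor signaling, had 93.1 CPM in T1 and 121 CPM in T2, against 123 CPM in C1 and 144 CPM in C2. Carcinoma was below non-tumor tissue without overlap, but T2 and C1, from different sets of dogs, lay almost level. Within the sets of dogs, the ratio of carcinoma to non-tumor tissue was 0.754 in pool 1 (95% interval 0.719 to 0.791) and 0.840 in pool 2 (95% interval 0.740 to 0.953). It was below 1 in each beyond counting error. The log2 fold change of EGR1 was −0.33 (SE 0.17, 95% interval −0.77 to 0.12, adjusted p = 0.289), so EGR1 did not pass. Thus the paralogs EGR1 and EGR2 had the same sign and fold changes of very different size in these libraries. Their difference was not tested.

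Of the genes for leucine zipper factors, FOS and FOSB had positive and JUN and ATF3 negative fold changes, and none of the 4 passed with edgeR or DESeq2, although ATF3 had an unadjusted p of 0.0305. FOS, which encodes the classical partner of JUN in the AP-1 dimer, had 64.4 CPM in T1 and 109 CPM in T2, against 48.7 CPM in C1 and 83.7 CPM in C2. The tissues overlapped, since C2 exceeded T1. The log2 fold change was 0.39 (SE 0.36, 95% interval −0.54 to 1.32, adjusted p = 0.529), and it was −0.018 without C1 and −0.020 without T2. Within the sets of dogs, the ratio of carcinoma to non-tumor tissue was 1.32 in pool 1 (95% interval 1.24 to 1.41) and 1.31 in pool 2 (95% interval 1.13 to 1.52), above 1 in each beyond counting error.

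FOSB, a paralog of FOS, had 13.8 CPM in T1 and 30.6 CPM in T2, against 11.0 CPM in C1 and 25.3 CPM in C2. It followed the same order of libraries as FOS, with T2 highest and C1 lowest. FOSB had a log2 fold change of 0.29 (SE 0.56, adjusted p = 0.776), which was −0.29 without C1 and −0.35 without T2. The ratio of carcinoma to non-tumor tissue was 1.25 in pool 1 (95% interval 1.08 to 1.44) and 1.21 in pool 2 (95% interval 0.917 to 1.60).

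JUN, which binds DNA as a homodimer or with FOS proteins, had 12.8 CPM in T1 and 18.1 CPM in T2, against 21.8 CPM in C1 and 18.8 CPM in C2. Carcinoma was lower without overlap, although T2 and C2 were nearly equal. For JUN the log2 fold change was −0.42 (SE 0.26, adjusted p = 0.357). The ratio of carcinoma to non-tumor tissue was 0.590 in pool 1 (95% interval 0.522 to 0.667) and 0.966 in pool 2 (95% interval 0.681 to 1.36). Within pool 2, a difference in JUN was not detectable at this depth.

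ATF3, a stress-induced factor that often acts as a repressor, had 13.5 CPM in T1 and 18.4 CPM in T2, against 24.6 CPM in C1 and 27.4 CPM in C2. Both carcinoma libraries lay below both non-tumor libraries. Its log2 fold change was −0.72 (SE 0.24, 95% interval −1.34 to −0.10, adjusted p = 0.130), which did not pass. The ratio of carcinoma to non-tumor tissue was 0.551 in pool 1 (95% interval 0.489 to 0.619) and 0.674 in pool 2 (95% interval 0.487 to 0.924), so the sign was the same in each set of dogs and beyond counting error.

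NR4A1 encodes an orphan nuclear receptor that is induced as an immediate early gene and acts without a known hormone. It had 5.84 CPM in T1 and 19.6 CPM in T2, against 5.18 CPM in C1 and 14.1 CPM in C2. The values of the same set of dogs lay closer together than those of the same tissue. The log2 fold change was 0.38 with the largest SE of the 10 genes (0.76, adjusted p = 0.782), and its 95% interval of −1.58 to 2.33 leaves room for a change in either direction. The log2 fold change was −0.29 without C1 and −0.65 without T2.

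**Figure D2:**
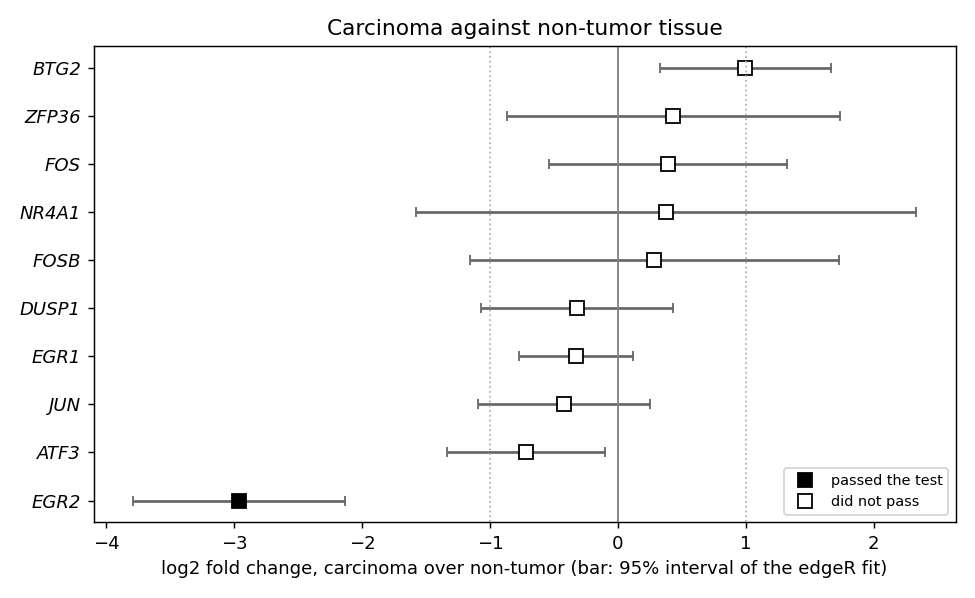
Log2 fold change of carcinoma over non-tumor (x axis) for each of the 10 immediate early genes, with the 95% interval of the edgeR fit as a bar, a filled square for the gene that passed the test and open squares for the others. EGR2 stands at −2.96 and BTG2 at 1.00, and the intervals of 7 of the 10 genes include 0.

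Among the brakes on the response, BTG2 had the largest positive fold change of the 10 genes. BTG2 encodes an antiproliferative protein that binds the CCR4-NOT deadenylase and is a target of p53. It had 12.1 CPM in T1 and 11.3 CPM in T2, against 5.69 CPM in C1 and 6.03 CPM in C2. Carcinoma was higher without overlap, and the 2 libraries of each tissue were close to each other. The mean was 11.7 ± 0.588 CPM in carcinoma and 5.86 ± 0.239 CPM in non-tumor tissue (SD, n = 2 each), a log2 fold change of 1.00 (0.998 before rounding, SE 0.26, adjusted p = 0.0714). BTG2 thus missed both thresholds narrowly in this fit, while its adjusted p with DESeq2 was 0.156. With the pools as a replicate block BTG2 passed (log2 fold change 1.04, adjusted p = 9.18e-09), in a fit that called 13.7% of all genes. That fit has 1 residual degree of freedom, so its p-values rest on the spread pooled over all genes. The ratio of carcinoma to non-tumor tissue was 2.13 in pool 1 (95% interval 1.78 to 2.57) and 1.88 in pool 2 (95% interval 1.11 to 3.22).

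DUSP1, a phosphatase that switches off MAP kinases in the nucleus, was the most abundant of the 10 genes by mean CPM. It had 169 CPM in T1 and 124 CPM in T2, against 230 CPM in C1 and 136 CPM in C2. The tissues overlapped, and C1 stood above the other libraries. Its log2 fold change was −0.32 (SE 0.29, adjusted p = 0.522), and without C1 it was 0.06. The ratio of carcinoma to non-tumor tissue was 0.735 in pool 1 (95% interval 0.710 to 0.761). In pool 2 it was 0.910 (95% interval 0.801 to 1.03), within counting error of 1.

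ZFP36, also called tristetraprolin, binds AU-rich elements and promotes the decay of cytokine and immediate early mRNAs. It had 9.07 CPM in T1 and 12.8 CPM in T2, against 4.78 CPM in C1 and 11.8 CPM in C2. The tissues overlapped, with C1 apart from the other libraries at the low end. The log2 fold change was 0.43 (SE 0.51, adjusted p = 0.622), and without C1 it was −0.19. The ratio of carcinoma to non-tumor tissue was 1.90 in pool 1 (95% interval 1.55 to 2.33) and 1.08 in pool 2 (95% interval 0.704 to 1.66).

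By tissue, 5 of the 10 genes were separated without overlap, BTG2 as higher and JUN, EGR1, EGR2 and ATF3 as lower in carcinoma. Of all genes 57.6% were so separated, 29.6% as higher and 28.0% as lower. The other 5 genes, FOS, FOSB, NR4A1, ZFP36 and DUSP1, were separated by pool instead. A gene cannot be separated both ways at once, since that would place T1 both above and below C2, or T2 both above and below C1. The sign of carcinoma over non-tumor was the same in pool 1 and pool 2 for all 10 genes, as it was for 84.5% of all genes, although several of these within-pool ratios lay within counting error of 1.

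Pool 2 was set against pool 1 with tissue in the fit. FOSB and NR4A1 were called higher in pool 2, where 5.10% of all genes were called higher and 0.656% lower. NR4A1 had a log2 fold change of pool 2 over pool 1 of 1.58 (SE 0.19, adjusted p = 4.14e-13), and FOSB one of 1.17 (SE 0.14, adjusted p = 2.78e-13). This fit has 1 residual degree of freedom, so its p-values rest on the spread pooled over all genes.

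In NR4A1 the ratio of pool 2 to pool 1 was 3.36 in carcinoma (95% interval 2.51 to 4.46) and 2.73 in non-tumor tissue (95% interval 1.99 to 3.69). In FOSB it was 2.23 in carcinoma (95% interval 1.78 to 2.76) and 2.30 in non-tumor tissue (95% interval 1.83 to 2.86). In both genes the offset between the sets of dogs thus had nearly the same size in each tissue.

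FOS and ZFP36 were also higher in both pool 2 libraries than in both pool 1 libraries, without reaching the fold threshold. The log2 fold change of pool 2 over pool 1 was 0.77 for FOS (SE 0.08) and 0.87 for ZFP36 (SE 0.20). FOS had ratios of 1.70 in carcinoma and 1.72 in non-tumor tissue, whereas ZFP36 had 1.41 in carcinoma and 2.48 in non-tumor tissue.

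DUSP1 went the other way, with a log2 fold change of pool 2 over pool 1 of −0.61 (SE 0.07) and ratios of 0.733 in carcinoma and 0.592 in non-tumor tissue. BTG2 (−0.03) and JUN (0.08) had the smallest pool offsets of the 10 genes on the log2 scale. In all, 4 genes were higher and 1 was lower in pool 2 without overlap, where 19.5% of all genes were higher and 17.4% lower. The median log2 fold change of pool 2 over pool 1 was 0.32 for the 10 genes and −0.02 for all genes.

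**Figure D3:**
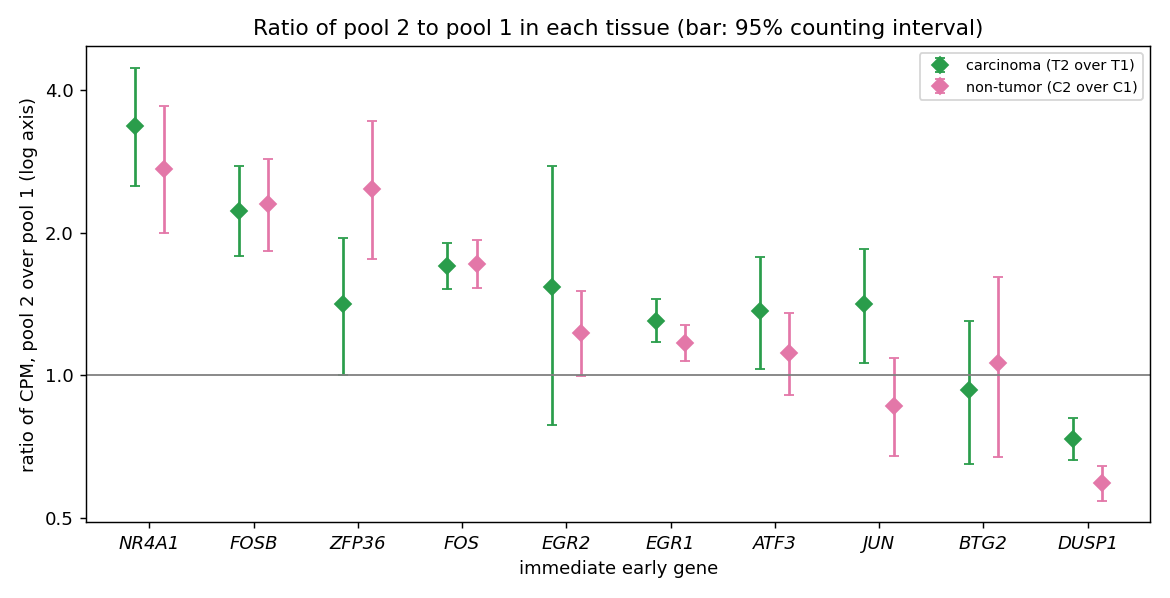
Ratio of CPM in pool 2 to CPM in pool 1 (log axis) for the 10 immediate early genes, in carcinoma (green, left) and in non-tumor tissue (pink, right), with 95% counting intervals. NR4A1 lies at 3.36 in carcinoma and 2.73 in non-tumor tissue, and DUSP1 lies below 1 in both tissues.

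The pools differ in dogs, in the mean age of the dogs (higher in pool 1) and in depth, which cannot be told apart. The offset also moved with gene length, a comparison chosen after the values were seen. The length column of the count tables gives 1026 bases for JUN and 14463 bases for ATF3, the extremes of the 10 genes. Of 2948 genes with a length in that range, 10.9% were called higher in pool 2 (median log2 fold change 0.18), and of 8102 longer genes 2.80% were (median −0.06). The part of length in the pool offset of the immediate early genes was not tested.

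Levels were compared between genes as CPM per kilobase of the length column, which had a median of 31689 bases over all genes. In FOS, FOSB, EGR1, ATF3, DUSP1, NR4A1 and ZFP36 it was 1.03 to 1.56 times the RefSeq gene span, which includes introns. The order below is thus one per gene span and does not rank transcript levels. In carcinoma the order of means was DUSP1 (32.2 CPM per kilobase), FOS (24.8), EGR1 (22.0), JUN (15.1), BTG2 (6.52), FOSB (3.43), ZFP36 (3.34), NR4A1 (1.55), ATF3 (1.11) and EGR2 (0.502). In non-tumor tissue it was DUSP1 (40.2), EGR1 (27.5), JUN (19.8), FOS (18.9), EGR2 (3.77), BTG2 (3.26), FOSB (2.80), ZFP36 (2.54), ATF3 (1.80) and NR4A1 (1.18). EGR2 was thus the lowest of the 10 in carcinoma and the fifth in non-tumor tissue.

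DUSP1, FOS, EGR1 and JUN held the top 4 places in each tissue. Of 9 neighboring pairs in each order, the libraries overlapped in 4 in carcinoma (DUSP1 and FOS, FOS and EGR1, FOSB and ZFP36, NR4A1 and ATF3) and in 5 in non-tumor tissue (JUN and FOS, BTG2 and FOSB, FOSB and ZFP36, ZFP36 and ATF3, ATF3 and NR4A1). Overlap here compares ranges, and the differences were not tested. Within each non-tumor library ATF3 exceeded NR4A1 (1.70 against 0.631 in C1, 1.89 against 1.72 in C2). So did FOSB exceed ZFP36 (1.70 against 1.46 in C1, 3.91 against 3.62 in C2). The other overlapping pairs changed order between the libraries of a tissue. Per kilobase of the RefSeq gene span, an alternative chosen after the values were seen, the top 4 places were held by the same genes in each tissue. That length is also a gene span and not a transcript length, so it cannot check the order per transcript. EGR2, whose length of 6357 bases was 0.0611 times its RefSeq span, came to place 10 in non-tumor tissue as well. The length of JUN, 1026 bases, was 0.770 times its RefSeq span and that of BTG2, 1798 bases, 0.446 times, so the levels of these genes per length depend on the gene model.

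The 10 genes together took 396 CPM in T1 and 470 CPM in T2, against 497 CPM in C1 and 494 CPM in C2. This sum was below non-tumor tissue in both carcinoma libraries, and DUSP1, EGR1 and FOS made up most of it in every library. Its parts did not move alike, since FOS was higher in carcinoma within each pool and DUSP1 and EGR1 were lower. For DUSP1 the ratio in pool 2 lay within counting error of 1. EGR2 had 3.87 CPM in T2 and 26.4 CPM in C2, a gap nearly as large as that of the sums in pool 2.

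As a description, the genes nearest to the mean profile of the 10 were RAP1GAP, CTSH, TANGO2, ENSCAFG00000004229 and CCDC88C, at Euclidean distances of 0.0304 to 0.0727 between centered log2 CPM values over 4 libraries. EGR1 was the nearest of the 10 themselves (0.219) and EGR2 the farthest (2.54), so the mean profile stands for few of them. All of these points share the same libraries.

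Genes related by family or pathway were read from lists, with the share of all genes called (4.61% higher, 5.23% lower) as the background. Of 19 other AP-1 and ATF subunit genes 9 were measured. Only JDP2, which encodes a repressor that pairs with JUN, passed, with 38.5 CPM in T1 and 52.3 CPM in T2, against 15.0 CPM in C1 and 14.1 CPM in C2 (log2 fold change 1.62, SE 0.23, adjusted p = 0.0123). None was lower, by edgeR or DESeq2 or at an unadjusted p under 0.05. JUNB, JUND and FOSL1 were not in the tables used here.

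Of 6 other EGR and NR4A genes and co-regulators only NR4A2 and NAB1 were measured, and neither passed with edgeR or DESeq2 or had an unadjusted p under 0.05. NR4A2, a paralog of NR4A1, had 6.95 CPM in T1 and 5.95 CPM in T2, against 8.20 CPM in C1 and 7.42 CPM in C2 (log2 fold change −0.26, SE 0.28, adjusted p = 0.586). NAB1, a co-repressor that binds EGR proteins, had a log2 fold change of −0.13 (SE 0.16, adjusted p = 0.652). The fall of EGR2 was thus not accompanied by a called change in these genes.

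The list of other immediate early and stress-induced genes moved in both directions. Of its 32 measured genes 6 were higher, 4 were lower and 22 did not pass, with a median log2 fold change of 0.16. Among those higher were CYR61, CTGF, GEM, NFKBIZ and CDKN1A. CYR61 (now CCN1), which encodes a matricellular protein, had 94.2 CPM in T1 and 124 CPM in T2, against 16.0 CPM in C1 and 18.8 CPM in C2, a log2 fold change of 2.65 (SE 0.20, adjusted p = 0.00277).

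CTGF (now CCN2), its paralog, had 394 CPM in T1 and 375 CPM in T2, against 170 CPM in C1 and 145 CPM in C2, a log2 fold change of 1.28 (SE 0.13, adjusted p = 0.00512). GEM, which encodes a small GTPase, had a log2 fold change of 2.00 (SE 0.26), and NFKBIZ, which encodes a nuclear regulator of NF-kB, one of 1.48 (SE 0.12). CDKN1A, which encodes the cell cycle inhibitor p21, had 14.4 CPM in T1 and 27.4 CPM in T2, against 5.45 CPM in C1 and 4.64 CPM in C2, a log2 fold change of 1.97 (SE 0.40, adjusted p = 0.0348).

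Those lower were AREG, RGS2, KLF4 and PIM1, of which KLF4 and PIM1 were named after their values were seen. AREG, which encodes the EGF receptor ligand amphiregulin, had 21.9 CPM in T1 and 17.0 CPM in T2, against 114 CPM in C1 and 98.5 CPM in C2, a log2 fold change of −2.41 (SE 0.18, adjusted p = 0.00277). RGS2, a brake on G protein signaling, had a log2 fold change of −1.66 (SE 0.12, adjusted p = 0.00282). KLF4 had −2.04 (SE 0.43, adjusted p = 0.0399) and PIM1 −1.23 (SE 0.26, adjusted p = 0.0429). EGR2 had a larger fall than these 4 genes in the same fit, a difference that was not tested.

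**Figure D4:**
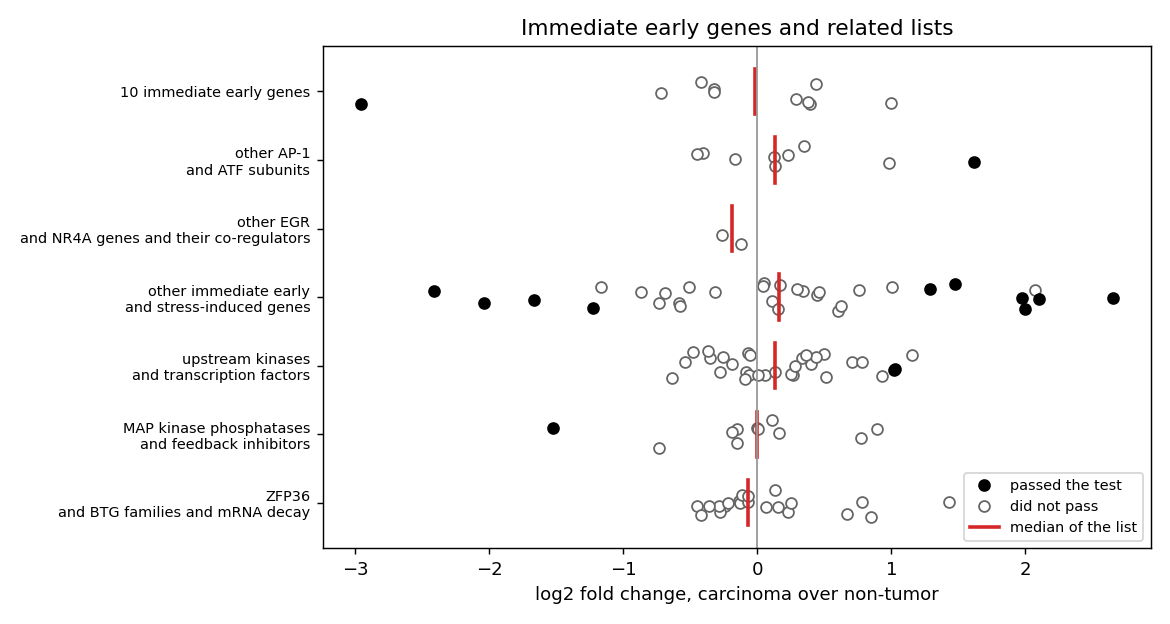
Log2 fold change of carcinoma over non-tumor for each measured gene of the 10 immediate early genes and 6 related lists, with 1 point per gene, filled where the gene passed the test, and a red line at the median of each list. EGR2 is the filled point at −2.96, and the medians lie between −0.19 and 0.16.

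Upstream of the immediate early genes, 31 of 43 kinase and transcription factor genes were measured and 2 were higher. MAP2K1, which encodes the kinase MEK1, had 128 CPM in T1 and 132 CPM in T2, against 58.5 CPM in C1 and 69.5 CPM in C2 (log2 fold change 1.03, SE 0.13, adjusted p = 0.00946). MKL1 (now MRTFA), a coactivator of the serum response factor, had a log2 fold change of 1.02 (SE 0.10, adjusted p = 0.00532). None was lower by edgeR or DESeq2, and 4 had an unadjusted p under 0.05 with a negative fold change. SRF and CREB1 themselves were not in the tables used here.

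Of 18 genes of other MAP kinase phosphatases and feedback inhibitors 11 were measured. DUSP10, which encodes a phosphatase for p38 and JNK, was lower, with 14.9 CPM in T1 and 16.4 CPM in T2, against 44.9 CPM in C1 and 45.2 CPM in C2 (log2 fold change −1.53, SE 0.17, adjusted p = 0.00705). None was higher by edgeR or DESeq2, and 1 had an unadjusted p under 0.05 with a positive fold change. DUSP6, a feedback phosphatase for ERK that was named after its values were seen, had a log2 fold change of −0.15 (SE 0.17, adjusted p = 0.601).

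Of 24 genes of the ZFP36 and BTG families and of mRNA decay 21 were measured. None passed with edgeR or DESeq2, and at an unadjusted p under 0.05 there were 2 with a positive and 1 with a negative fold change. BTG3, a paralog of BTG2, had a log2 fold change of 0.67 (SE 0.16, adjusted p = 0.0538), and PAN3, which encodes a deadenylase subunit, one of −0.45 (SE 0.12, adjusted p = 0.0749). ZFP36L1, a paralog of ZFP36 named after its values were seen, had 25.3 CPM in T1 and 64.5 CPM in T2, against 9.04 CPM in C1 and 25.0 CPM in C2. Its log2 fold change was 1.43 (SE 0.66, adjusted p = 0.236). It passed with the replicate block (1.44, adjusted p = 6.19e-27), where p-values rest on the spread pooled over all genes. Like ZFP36 it was higher in pool 2, by 1.39 on the log2 scale (SE 0.12).

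Of the 32 other immediate early genes 2 were called higher in pool 2, KLF6 (1.04, SE 0.12) and RHOB (1.73, SE 0.18), as log2 fold changes of pool 2 over pool 1. This share was near the 5.10% of all genes. Both were named after their values were seen. RHOB, which encodes a small GTPase induced early by stress, had 4.72 CPM in T1 and 17.8 CPM in T2, against 7.59 CPM in C1 and 23.4 CPM in C2. KLF6, a zinc finger factor, had 15.2 CPM in T1 and 33.6 CPM in T2, against 24.1 CPM in C1 and 47.5 CPM in C2.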

How the data were processed

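The values are whole-number counts per gene that the authors deposited without normalization, with a length per gene. The methods of the study name TopHat2 and HTSeq (default settings), whereas the submitters' processing notes name STAR and featureCounts, and the tables have the layout of featureCounts. Neither the genome build nor the strand setting of featureCounts is given in the sources used here, so no coordinates are printed, and reads of overlapping or antisense genes may not be told apart. The tables list 11277 genes, each with at least 155 counts over the 4 libraries.

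Counts were fitted with edgeR 4.0.16 in R 4.3.3 (TMM, filterByExpr by group, which kept all 11277 genes, quasi-likelihood test, prior count of 2), without a block, with DESeq2 1.42.0 as an alternative. Scripts were tested on simulated data, with a spread that was set and not taken from these libraries. There the main fit called 0% of genes changed 2-fold, 78% of those changed 4-fold and 96% of those changed 8-fold. With the replicate block 62% of genes changed 2-fold were called, and with DESeq2 16%. That a gene did not pass therefore does not show that it was unchanged. Standard errors are the absolute log2 fold change over the square root of F. The pairing comes from the study's account that T1 and C1, and T2 and C2, are from the same dogs. The deviations from the group mean in T1 and in C1 had a correlation of 0.802 over genes (genes do not count as replicates). An exact permutation test of 2 against 2 libraries cannot give a p below 0.333, so p-values come from the fit. All 10 genes are described. From each related list, the up to 8 called genes with the smallest adjusted p are named, or the first 2 where none was called, with exceptions marked, except for a gene that is not reported here. The genes and lists were chosen with earlier results of these data known. RefSeq gene spans are of assembly UU_Cfam_GSD_1.0. Figures were drawn with matplotlib 3.10.9.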

Additional observations from a re-analysis of the deposited data

How the results depend on the processing

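EGR2 was the one immediate early gene called under 13 of 14 alternatives (3 other scalings, DESeq2, 2 other filters, thinned libraries, the 2 most abundant features left out, a prior count of 0.5 and each library left out), with log2 fold changes from −3.20 to −2.62 over all 14. The alternative without a filter on low counts repeated the main fit, because the main filter had kept every gene. A prior count of 0.5 changes fold changes but not p-values. Neither could therefore have given EGR2 another adjusted p. Under the replicate block (pool number) 2 were called, EGR2 and BTG2 (log2 fold change 1.04, adjusted p = 9.18e-09), and 9 of 10 had an adjusted p under 0.05 at any fold, as had 64.1% of all genes. With 1 residual degree of freedom, the p-values of that fit rest on the spread pooled over all genes. Called genes numbered 1110 without and 1547 with the block, and 763 to 1044 with a library left out. The median log2 fold change of the 10 genes then ranged from −0.44 to 0.30. With a library left out the pools are unbalanced, and the log2 fold change ranged from −0.020 to 0.81 for FOS, −0.35 to 0.96 for FOSB, −0.64 to 0.062 for DUSP1, −0.65 to 1.20 for NR4A1 and −0.19 to 1.15 for ZFP36. The sign turned without C1 for these 5 genes and without T2 for FOS, FOSB and NR4A1. The pool calls of FOSB and NR4A1 held with other size factors and with libraries thinned to 3236218 counts. Per kilobase of RefSeq span, FOS stood at place 3, FOSB 5, EGR1 2, ZFP36 6 and BTG2 7 in carcinoma. Transcript lengths were not used here, so that alternative was not run. Depth limits EGR2 and BTG2 in pool 2.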
